A study of Mus musculus with 32 samples.

Results

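The gastrocnemius medialis of mice that had lost Acvr1b in their myofibres was compared with that of control mice by polyA RNA sequencing. The comparison used 8 of the 32 libraries of the series, 4 Acvr1b KO and 4 control, each from the left leg of a different mouse, and covered the 17536 genes of 55487 that passed a filter on low counts. Knockout was induced by tamoxifen injection at 6 weeks of age, and whole muscles were frozen 3 months later. The labels describe the knockout as myofibre-specific without naming the Cre line, and they do not state whether control mice carried floxed alleles or received tamoxifen. The other libraries came from Tgfbr1 KO mice, from mice labelled as knockouts of both receptors (double KO), and from the soleus of all 16 mice. The soleus is a slow muscle, and the gastrocnemius medialis a mainly fast one.

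Acvr1b encodes ALK4, a type I receptor of the TGF-β superfamily. Activins, myostatin and GDF11 first bind a type II receptor, ACVR2A or ACVR2B, which then phosphorylates ALK4 or the related TGFBR1 (ALK5), and the type I receptor phosphorylates SMAD2 and SMAD3. In skeletal muscle this branch restrains fibre growth, and myostatin, a ligand secreted by muscle itself, is its best known input.

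Total counts per library ran from 33748048 to 39018560 in Acvr1b KO and from 29388220 to 54436308 in control. Levels are given as CPM, the count scaled to a common library size after TMM adjustment. The libraries had the profile of fast muscle. The fast myosin gene Myh4 averaged 67513 CPM in Acvr1b KO and 71701 CPM in control. The slow myosin gene Myh7 averaged 682 and 749 CPM in the same groups. Ckm, muscle creatine kinase, averaged 15320 ± 836 CPM in Acvr1b KO and 15081 ± 1395 CPM in control (SD, n = 4 each, as throughout), and the summed level of 10 myofibre markers lay between 62831 and 71773 CPM in Acvr1b KO, against 67246 to 70833 CPM in control. Control 1 stood apart: mitochondrially encoded genes took 25.99% of its counts, against 10.58 to 14.46% in Acvr1b KO and 10.35 to 13.88% in the other controls. The 4 Acvr1b KO mice all carried lower animal numbers than the 4 controls, so genotype and order of numbering cannot be told apart.

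Acvr1b mRNA fell to about 24.1% of the control level. The 4 Acvr1b KO libraries measured 25.3, 24.6, 22.6 and 21.7 CPM, against 87.7, 107, 95.3 and 101 CPM in control. The groups lay far apart, and the spread within each was small beside the gap. The 95% confidence interval of that level was 19.4 to 30.1% of control, and the log2 change was −2.05 (SE 0.15, edgeR quasi-likelihood test with Benjamini-Hochberg adjustment, adjusted p = 2.86e-06). Acvr1b lies on the plus strand of GRCm38 chromosome 15, from 101174067 to 101213684. The count covers all exons and all cells of the muscle, so reads from exons that were not deleted, from other cell types and from fibres that kept the gene cannot be told apart, and in bulk tissue neither can fewer cells of a type and less RNA per cell.

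Beside Acvr1b, 4 genes passed the threshold of 0.05, and all 4 lay on chromosome 15 within 3 Mb before its start. The 5 genes make up 0.0285% of those tested, with 2 that rose (0.0114%) and 3 that fell (0.0171%). Of all genes, 775 (4.42%) had an unadjusted p under 0.05, 381 (2.17%) higher and 394 (2.25%) lower in Acvr1b KO. The count of 5 was 9 without Acvr1b KO 1, 4 without control 1 and 3 without any other of the 8 libraries, and DESeq2 called 26.

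Slc4a8, a sodium-driven chloride/bicarbonate exchanger (100761747 to 100823968), fell with Acvr1b. It measured 2.54, 2.69, 2.83 and 2.10 CPM in Acvr1b KO, against 11.3, 8.11, 7.98 and 6.90 CPM in control. The groups did not overlap, and control 1 was the highest library. The level fell to 29.7% of control (log2 change −1.75, SE 0.19, edgeR adjusted p = 0.000633). None of the other 6 SLC4 transporters tested passed. Per length of transcript, Slc4a8 averaged 0.195 ± 0.0241 RPKM (CPM per kilobase of transcript) in Acvr1b KO and 0.657 ± 0.144 RPKM in control, against 2.60 ± 0.367 and 3.11 ± 0.58 RPKM for Slc4a4, the electrogenic sodium bicarbonate cotransporter, in the same groups.

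Gm49492, a non-coding RNA that the annotation places at a bidirectional promoter (100600204 to 100602766), next to the transcription factor gene Pou6f1, also fell. Its level was 0.233, 0.400, 0.393 and 0.351 CPM in Acvr1b KO, against 1.73, 1.79, 1.79 and 1.00 CPM in control. Control 4 was well below the other controls but still above every Acvr1b KO library. The log2 change was −2.17 (SE 0.35, edgeR adjusted p = 0.0401), and the call was lost without any 1 of the 8 libraries other than control 4 and with the replicate number as a block (0.137). Pou6f1 itself averaged 14.3 ± 0.363 CPM in Acvr1b KO and 16.8 ± 1.39 CPM in control and did not pass (log2 change −0.24, adjusted p = 0.947).

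Zfp641, a zinc finger protein gene (98285585 to 98296161), rose to 164% of control. It measured 25.8, 29.9, 28.7 and 24.6 CPM in Acvr1b KO, against 18.7, 15.6, 14.4 and 17.6 CPM in control. Every Acvr1b KO library was above every control (log2 change 0.72, SE 0.11, edgeR adjusted p = 0.0401). Leaving out Acvr1b KO 2, 3 or 4 or control 2, 3 or 4 put its adjusted p between 0.0511 and 0.234, and it was 0.107 with only the 8 compared libraries and 0.0827 with the replicate number as a block.

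Mettl7a3 rose more than Zfp641, the other called gene that rose. It belongs to a cluster of 3 methyltransferase-like 7A genes, named for a methyltransferase domain. Its level was 1.95, 1.89, 1.52 and 1.59 CPM in Acvr1b KO, against 0.198, 0.453, 0.677 and 0.373 CPM in control. The groups did not overlap (log2 change 2.06, SE 0.29, edgeR adjusted p = 0.00899), but the call was lost without control 4 (adjusted p = 0.0556), with only the 8 compared libraries (0.0795) and with the replicate number as a block (0.0601). The 3 genes share most of their coding sequence, and a read that fits more than 1 of them was divided by the authors' counting, so Mettl7a3 had fractional counts in all 8 libraries. The first 170 coding bases are shown so that the likeness of the copies can be seen; they hold 3 of the 7 coding differences between Mettl7a3 and Mettl7a2 and 18 of the 42 between Mettl7a3 and Mettl7a1. They are from GENCODE M21 (GRCm38, plus strand, chr15:100334930-100335099, chr15:100353210-100353379 and chr15:100304847-100305016 in the order printed), with capitals at positions where the 3 are not all alike.
Mettl7a3: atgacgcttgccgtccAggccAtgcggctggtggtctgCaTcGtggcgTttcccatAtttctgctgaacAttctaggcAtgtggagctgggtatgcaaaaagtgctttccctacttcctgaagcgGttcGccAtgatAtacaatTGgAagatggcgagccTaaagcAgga
Mettl7a2: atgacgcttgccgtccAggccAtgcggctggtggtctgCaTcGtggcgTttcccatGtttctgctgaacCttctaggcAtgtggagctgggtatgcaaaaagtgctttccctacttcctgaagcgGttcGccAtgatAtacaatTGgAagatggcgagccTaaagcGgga
Mettl7a1: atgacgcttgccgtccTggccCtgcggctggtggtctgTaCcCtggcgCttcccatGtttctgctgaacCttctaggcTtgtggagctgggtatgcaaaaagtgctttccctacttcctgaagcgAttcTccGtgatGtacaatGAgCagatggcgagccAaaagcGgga

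Over the 735 coding bases Mettl7a3 differed from Mettl7a2 at 7 positions (99.05% identical) and from Mettl7a1 at 42 (94.29%). Of all windows of 75 bases along the Mettl7a3 transcript, 36.4% occurred unchanged in that of Mettl7a2 and 2.79% in that of Mettl7a1. The separate values of Mettl7a3 and Mettl7a2 are therefore uncertain. Mettl7a2 measured 2.80, 2.94, 2.9 and 3.07 CPM in Acvr1b KO, against 0.719, 1.69, 1.45 and 1.44 CPM in control. These groups did not overlap either, but the gene did not pass (log2 change 1.15, SE 0.21, edgeR adjusted p = 0.114). Mettl7a1, the most abundant copy, averaged 15.8 ± 0.522 CPM in Acvr1b KO and 13.9 ± 1.01 CPM in control (log2 change 0.19, adjusted p = 1.00).

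**Figure D1:**
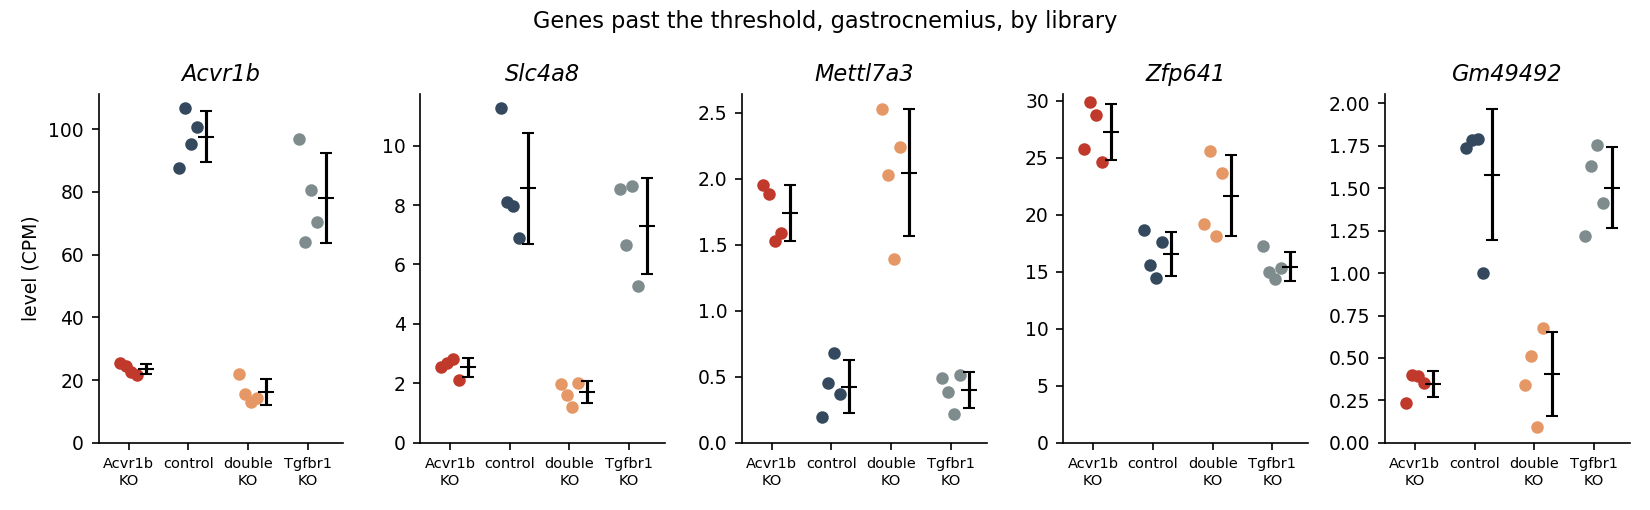
Level in CPM of the 5 genes past the threshold in each gastrocnemius library of Acvr1b KO, control, double KO and Tgfbr1 KO mice; points are libraries, and bars give the mean and SD of 4. In each panel the 4 Acvr1b KO libraries lie to 1 side of all 4 controls, and the double KO libraries lie to the same side of all 4 Tgfbr1 KO libraries.

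Genes with small p-values were concentrated around Acvr1b. Of the 31 genes tested within 1 Mb, 10 (32.3%) had an unadjusted p under 0.05 and 4 passed the threshold. The share was 13.5% of 52 genes between 1 and 2 Mb, 11.3% of 53 between 2 and 5 Mb and 25% of 20 between 5 and 10 Mb. It was 4.96% of 121 genes between 10 and 20 Mb, 6.3% of 238 between 20 and 50 Mb, 3.16% of 158 genes over 50 Mb away and 4.28% of the 16863 genes on other chromosomes. Of the 20 genes with the smallest p, 12 were on chromosome 15, which holds 3.84% of the genes tested, and 10 were within 20 Mb of Acvr1b. The direction was mixed, with 13 genes higher and 15 lower among the 28 with an unadjusted p under 0.05 within 10 Mb.

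**Figure D2:**
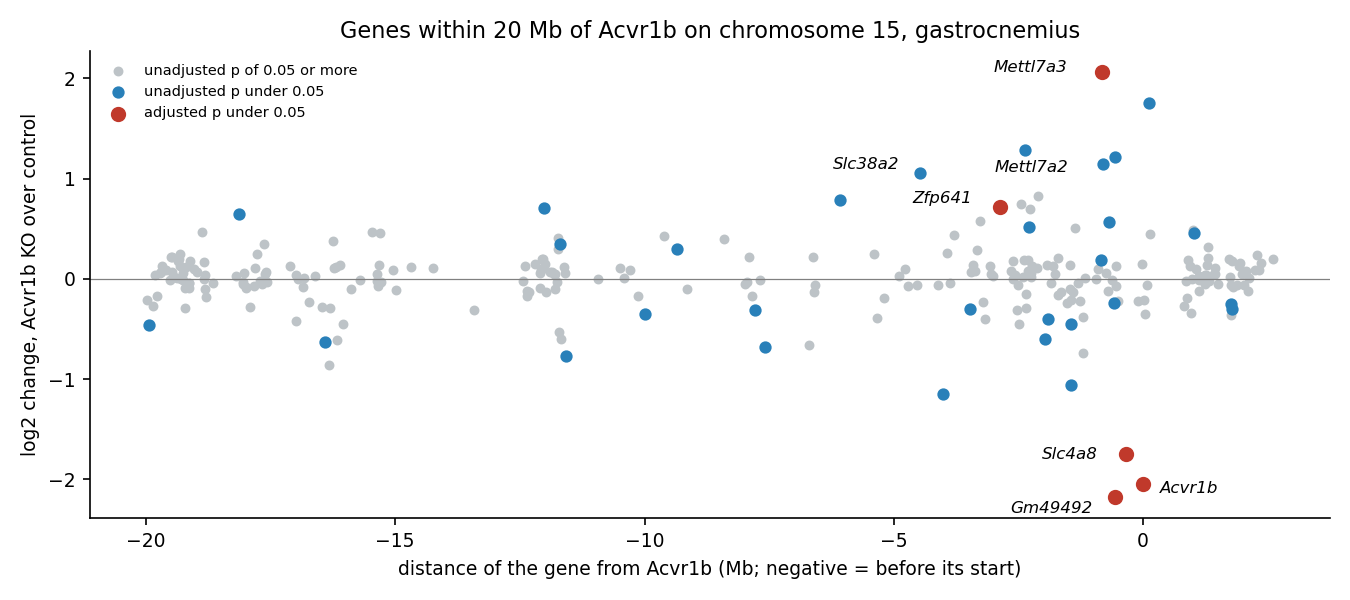
Log2 change of each tested gene, Acvr1b KO over control, against its distance from Acvr1b in Mb, within 20 Mb on chromosome 15. The 5 genes past the threshold (red) all lie within 3 Mb, and genes with an unadjusted p under 0.05 (blue) occur in both directions.

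The 2 tested genes nearest to Acvr1b on each side did not pass. Acvrl1, which encodes the type I receptor ALK1 of endothelial cells, averaged 6.16 ± 0.853 CPM in Acvr1b KO and 5.60 ± 1.44 CPM in control (log2 change 0.15, edgeR adjusted p = 1.00). Grasp, a scaffold protein gene, averaged 5.13 ± 0.896 and 5.92 ± 0.636 CPM in the same groups (−0.21). Nr4a1, an orphan nuclear receptor that responds rapidly to exercise, averaged 216 ± 33.8 CPM in Acvr1b KO and 275 ± 92.8 CPM in control (−0.35). Fignl2, beyond Acvrl1, averaged 0.834 ± 0.193 CPM in Acvr1b KO and 0.976 ± 0.18 CPM in control (−0.22). In all 4 genes the groups overlapped.

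Other genes of the stretch, Gpd1, Spats2, Csrnp2, Pou6f1 and Rarg among them, had groups that did not overlap and did not pass. Gpd1, cytosolic glycerol-3-phosphate dehydrogenase, lies 1.45 Mb from Acvr1b and lay between 375 and 430 CPM in Acvr1b KO, against 442 to 606 CPM in control. The groups did not overlap, but control 3, the lowest control, came close to the highest Acvr1b KO library and the gene did not pass (log2 change −0.45, SE 0.13, edgeR adjusted p = 0.661). Spats2 measured 3.30, 4.20, 3.93 and 4.02 CPM in Acvr1b KO, against 6.12, 5.69, 5.68 and 5.92 CPM in control, with no overlap (−0.60, adjusted p = 0.15). Slc38a2, which encodes the amino acid transporter SNAT2 and was picked out after its values were seen, lies 4.47 Mb away and measured 524, 317, 336 and 256 CPM in Acvr1b KO, against 221, 162, 135 and 172 CPM in control. It did not overlap but missed the threshold (1.05, SE 0.20, adjusted p = 0.146).

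The double KO and Tgfbr1 KO gastrocnemius libraries differ by label in the same Acvr1b deletion and come from other mice. Their levels do not enter the difference between Acvr1b KO and control, but they were in the same fit and shared its filter and its estimate of the spread. With only the 8 compared libraries, 3 of the 5 genes passed. The gene-level count of Tgfbr1 did not fall in the libraries labelled with its knockout. In double KO gastrocnemius Tgfbr1 measured 53.1, 45.1, 43.6 and 35.2 CPM, above every control library (20.7 to 34.9 CPM; log2 change over control 0.76, edgeR adjusted p = 0.00285), against the direction of that label. In double KO over Tgfbr1 KO gastrocnemius all 5 genes passed in the same direction as in Acvr1b KO, in a comparison in which 12.9% of all genes passed. The log2 change, double KO over Tgfbr1 KO, was −2.27 (SE 0.15) for Acvr1b, −2.08 (SE 0.20) for Slc4a8, 2.34 (SE 0.29) for Mettl7a3, 0.49 (SE 0.12) for Zfp641 and −1.90 (SE 0.35) for Gm49492, with edgeR adjusted p between 6.87e-08 and 0.0103. Mettl7a2 passed there too (1.28, SE 0.20, adjusted p = 0.000645). Double KO mice form a number range of their own, so numbering and genotype cannot be told apart there either. Of the 34 genes within 20 Mb of Acvr1b that had an unadjusted p under 0.05, 28 (82.4%) had the same sign in double KO over Tgfbr1 KO. Of the 741 such genes elsewhere 68.6% did, and of all genes tested 55.8%. Slc38a2 went the other way, with −0.68 in double KO over Tgfbr1 KO (adjusted p = 0.0332). The 34 genes include the 5 that passed. In double KO over Tgfbr1 KO, 54.8% of the 31 genes within 1 Mb had an edgeR unadjusted p under 0.05. Within 20 Mb the share was 28.2% of 277 genes, close to the 26% on other chromosomes.

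Soleus showed the same neighbourhood. The soleus libraries are from the same mice and are thus a second muscle, not further mice. Their spread was wider, with a biological coefficient of variation of 0.218, against 0.15 in gastrocnemius. Soleus Acvr1b KO 1 had 29.7 CPM of Col1a1, against 185 to 287 CPM in the other Acvr1b KO and 78.1 to 342 CPM in control soleus. Soleus double KO 1 had 477 CPM of Hdac4, against 46.2 to 59.5 CPM in the other double KO libraries. In soleus, 4 genes of 18143 (0.022%) passed in Acvr1b KO against control, and these were Acvr1b (log2 change −1.70), Slc4a8 (−1.33), Mettl7a3 (1.82) and Gm49492 (−1.30). Zfp641 averaged 17.3 ± 2.49 CPM in Acvr1b KO soleus and 13.3 ± 0.401 CPM in control soleus and did not pass (0.38, SE 0.14, edgeR adjusted p = 1.00). In double KO over Tgfbr1 KO soleus, where 9 genes (0.0496%) passed, those 4 and Mettl7a2 (1.53) were among them, while Zfp641 had 0.39 (adjusted p = 0.420). When the 2 muscles were set against each other in 1 fit, 0 of 18726 genes (0%) passed by edgeR or by DESeq2, and 244 (1.3%) had an unadjusted p under 0.05. That fit took a mean per genotype and muscle and did not use the pairing of the 2 muscles of a mouse. The intervals that follow leave the pairing out as well. For Acvr1b the gastrocnemius effect minus the soleus effect was −0.35 (95% confidence interval −0.80 to 0.10), and for Slc4a8 it was −0.42 (−0.94 to 0.10). For Gm49492 it was −0.87 (−1.72 to −0.02, edgeR unadjusted p = 0.0459, adjusted p = 1.00).

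**Figure D3:**
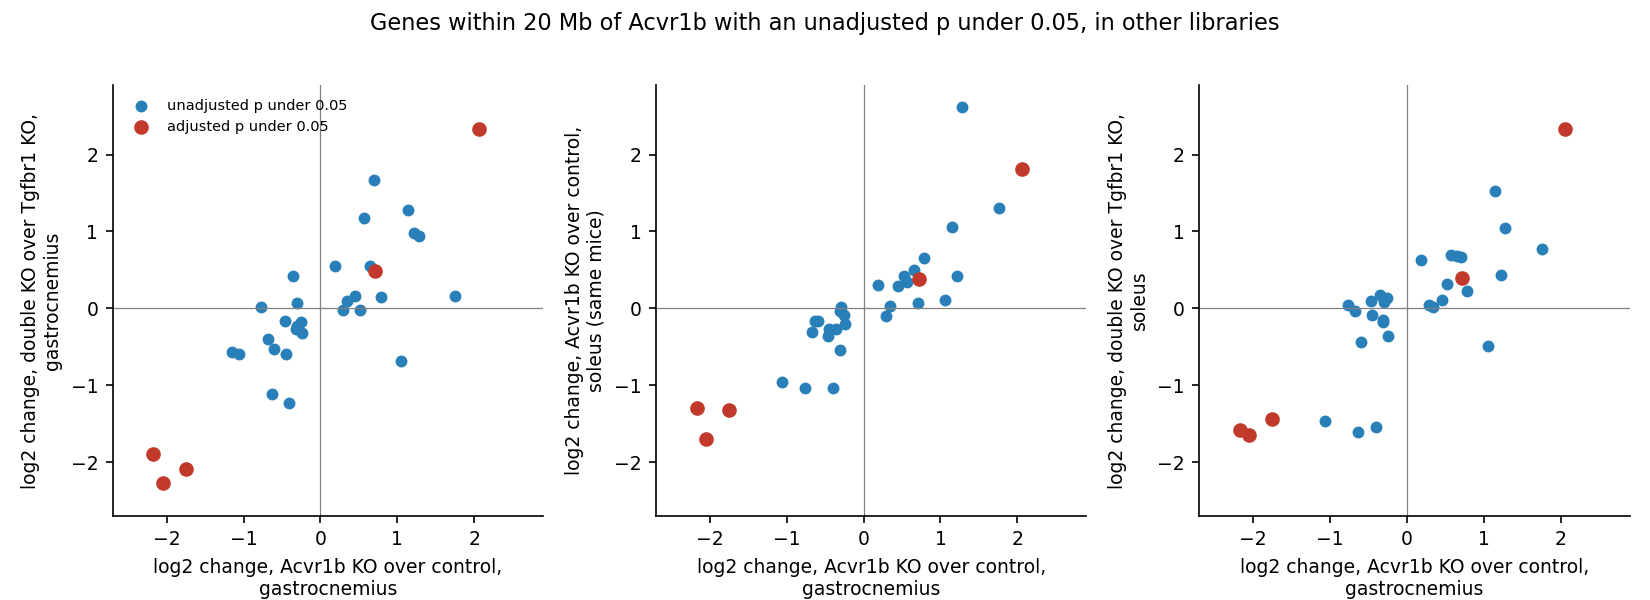
Log2 change in gastrocnemius, Acvr1b KO over control (x axis), of the genes within 20 Mb of Acvr1b with an unadjusted p under 0.05, against their log2 change in double KO over Tgfbr1 KO gastrocnemius, in Acvr1b KO over control soleus and in double KO over Tgfbr1 KO soleus (y axes). The 5 genes past the threshold (red) keep their sign in each panel, and Slc38a2, near 1.05 on the x axis, is below 0 in both double KO panels.

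Loss of the receptor and any difference in the stretch of chromosome 15 that carries the targeted allele go together in these groups. Their parts in the values of the neighbours cannot be told apart. Whether control mice carried floxed alleles is not stated, so it is not known if the stretch differs.

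The receptors and ligands of the pathway outside this stretch did not pass. Of 12 TGF-β family receptors tested, Acvr1b alone passed (median log2 change of the list −0.09, against −0.0039 over all genes). Tgfbr1, the other type I receptor of the SMAD2/3 branch, averaged 24.7 ± 3.39 CPM in Acvr1b KO and 26.2 ± 6.56 CPM in control (log2 change −0.08, 95% confidence interval −0.42 to 0.26). Tgfbr2, the TGF-β type II receptor, averaged 26.8 ± 3.01 and 25.7 ± 3.11 CPM in the same groups (0.06, −0.14 to 0.26). The activin type II receptor genes Acvr2a (−0.11, −0.66 to 0.43) and Acvr2b (0.20, −0.23 to 0.63) had wider intervals. Acvr1c, which encodes ALK7, was below the filter. Per length, Acvr1b averaged 5.33 ± 0.383 RPKM in Acvr1b KO and 22.1 ± 1.82 RPKM in control, and Tgfbr1 averaged 3.79 ± 0.518 and 4.01 ± 1.00 RPKM in the same groups. In control muscle Acvr1b mRNA thus stood above that of the BMP type I receptor gene Bmpr1a (9.74 ± 2.65 RPKM), which measured 9.79 ± 0.431 RPKM in Acvr1b KO.

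Of 15 ligand genes tested 0 passed by edgeR, and 0 had an unadjusted p under 0.05 (median −0.17). Mstn, myostatin, measured 110, 64.6, 70.9 and 81.2 CPM in Acvr1b KO, against 126, 84.5, 108 and 84.6 CPM in control. The groups overlapped (log2 change −0.30, 95% confidence interval −0.63 to 0.03, edgeR adjusted p = 1.00). Gdf11, a close relative of myostatin, averaged 17.7 ± 0.703 CPM in Acvr1b KO and 16.9 ± 2.98 CPM in control (0.07). Inhba, the activin A subunit, averaged 1.02 ± 0.239 and 1.40 ± 0.338 CPM in the same groups (−0.46, −1.24 to 0.32), and Fst, the activin and myostatin antagonist follistatin, 2.52 ± 0.529 and 2.93 ± 0.471 CPM (−0.22).

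Among 16 antagonists and latency proteins 0 passed by edgeR and 2 had an unadjusted p under 0.05, both higher in Acvr1b KO. These were Nrros (0.64, adjusted p = 0.817) and Lrrc32 (0.37, adjusted p = 1.00), both of which encode membrane proteins that hold latent TGF-β at the cell surface. Nrros measured 1.20, 1.77, 1.97 and 1.67 CPM in Acvr1b KO, against 1.02, 1.23, 0.812 and 1.17 CPM in control. Only Acvr1b KO 1 fell within the range of the controls.

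The SMAD2/3 target list had a median log2 change of −0.01 over 18 genes, 0 of which passed by edgeR and 2 of which had an unadjusted p under 0.05, both lower. Pmepa1, a feedback inhibitor induced by TGF-β, averaged 19.5 ± 1.06 CPM in Acvr1b KO and 20.8 ± 3.73 CPM in control (−0.09, 95% confidence interval −0.37 to 0.18). Smad7, the inhibitory SMAD, averaged 2.92 ± 0.569 and 2.85 ± 0.509 CPM in the same groups (0.04, −0.30 to 0.39). Ccn2, connective tissue growth factor, measured 39.7, 28, 41 and 41.2 CPM in Acvr1b KO, against 58.3, 53.9, 111 and 51.1 CPM in control. The groups did not overlap and control 3 was the highest (log2 change −0.87, SE 0.32, edgeR adjusted p = 1.00). Of 12 BMP target genes 0 passed by edgeR and 0 had an unadjusted p under 0.05 (median 0.11).

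The contractile genes did not pass. Myh4, the myosin of the fastest fibres, averaged 67513 ± 3827 CPM in Acvr1b KO and 71701 ± 11381 CPM in control (log2 change −0.09, 95% confidence interval −0.30 to 0.12). Control 1 alone, at 88721 CPM, set the higher control mean, and without it the log2 change was 0.03. Myh1, the IIX myosin, averaged 5116 ± 582 and 6234 ± 993 CPM in the same groups (−0.29, −0.60 to 0.03), Myh2, the IIA myosin, 5801 ± 143 and 5816 ± 480 CPM (−0.0037, −0.23 to 0.22), and Myh7, the slow myosin, 682 ± 26.8 and 749 ± 167 CPM (−0.13, −0.45 to 0.18). Of 18 slow contractile genes 0 passed by edgeR and 1 had an unadjusted p under 0.05, which was Tnnt1, slow troponin T (−0.34, adjusted p = 1.00), and of 19 fast contractile genes 0 and 0 did. The 5 fibre-type transcription factors, among them Prox1, which favours the slow programme, and Sox6, which favours the fast one, had log2 changes between −0.15 and 0.06.

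Metabolic lists had medians close to that of all genes. The median log2 change was −0.02 over 77 nuclear-encoded respiratory chain genes, −0.02 over 29 genes of the TCA cycle and pyruvate oxidation, −0.0049 over 40 of fatty acid use and −0.04 over 37 of glycolysis and glycogen. In these 4 lists 0 genes passed by edgeR and 3 had an unadjusted p under 0.05, namely Ndufs5 and Ndufs6, subunits of complex I, and Gpd1, all lower. Ppargc1a, the PGC-1α coactivator of mitochondrial biogenesis, averaged 40.1 ± 5.47 CPM in Acvr1b KO and 52.5 ± 15.9 CPM in control (−0.39, edgeR adjusted p = 1.00). Control 1 was the highest library at 75.5 CPM, and leaving out 1 library at a time gave −0.48 to −0.16. Ppargc1b averaged 7.59 ± 2.33 CPM in Acvr1b KO and 5.56 ± 0.798 CPM in control (0.45, adjusted p = 1.00). Over the 13 mRNAs of the mitochondrial genome the median was −0.62, and it was 0.08 without control 1, the library with the high mitochondrial share. Their summed level was 98389 to 138700 CPM in Acvr1b KO, against 341701 CPM in control 1 and 97767 to 132886 CPM in the other controls.

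Growth and atrophy genes did not pass either. Trim63 and Fbxo32, the muscle ubiquitin ligases MuRF1 and atrogin-1, had log2 changes of −0.36 (95% confidence interval −1.13 to 0.41) and −0.11 (−0.64 to 0.41). Igf1 measured 6.21, 9.64, 8.97 and 8.60 CPM in Acvr1b KO, against 25, 8.36, 14.7 and 9.23 CPM in control. The groups overlapped, and control 1 was far above the rest (−0.78, SE 0.31, edgeR adjusted p = 1.00). Cytosolic ribosomal protein genes, 53 in number, lay within −0.17 and 0.14.

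Among myogenic genes, Myod1 and Pax7 had higher values in every Acvr1b KO library than in any control. Myod1, the myogenic transcription factor, measured 2.19, 2.26, 2.83 and 2.10 CPM in Acvr1b KO, against 0.818, 1.06, 1.96 and 1.26 CPM in control, with no overlap (log2 change 0.91, SE 0.28, edgeR adjusted p = 0.863). Pax7, the satellite-cell transcription factor, measured 0.817, 0.629, 0.787 and 0.863 CPM in Acvr1b KO, against 0.347, 0.428, 0.575 and 0.536 CPM in control, again with no overlap (0.72, SE 0.27, adjusted p = 1.00). With Six4 (0.37), picked out after its values were seen, these were the 3 of 18 myogenic genes with an unadjusted p under 0.05. By edgeR 0 of the 18 passed. Every Acvr1b KO library was above every control in 3 of the 18, against 253 of all genes (1.44%). Six4 was not 1 of these 3, with 9.69 CPM in Acvr1b KO 1 and 10.4 CPM in control 1.

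Immediate early genes, which are transcribed within minutes of contraction, stress or handling, had negative log2 changes in 23 of 27 cases. Of the 27, 0 passed by edgeR and 7 had an unadjusted p under 0.05, all 7 lower, against 2.25% of all genes lower at that p. These were Maff and Zfp36 and, chosen after their values were seen, Ier5, Fosb, Egr1, Btg2 and Csrnp1. Zfp36, which encodes the mRNA-destabilising protein tristetraprolin, measured 41.8, 29, 27.8 and 25.6 CPM in Acvr1b KO, against 48.7, 54.8, 78.6 and 51.6 CPM in control, with no overlap (log2 change −0.91, SE 0.27, edgeR adjusted p = 0.787). The summed level of the 27 genes was 658, 642, 544 and 572 CPM in Acvr1b KO, against 779, 704, 991 and 730 CPM in control. The sums did not overlap, and control 3 was the highest. The median log2 change was −0.25, and without control 3 it was −0.10, with 4 genes at an unadjusted p under 0.05. The glucocorticoid-responsive list had a median of −0.20 over 17 genes, with Cebpd (−0.65) and Errfi1 (−0.89) at an unadjusted p under 0.05 and 0 past the threshold by edgeR. Acvr1b KO 1 had the highest Errfi1 level of its group, 94.1 CPM against 41 to 47.8 CPM in the other 3, and within the control range of 92.6 to 134 CPM. In Tgfbr1 KO gastrocnemius Errfi1 measured 78.5, 41, 65.3 and 35.1 CPM, below every control. Cebpd measured 38.3, 17.4, 29.5 and 21.1 CPM there, against 36.3 to 57.3 CPM in control.

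**Figure D4:**
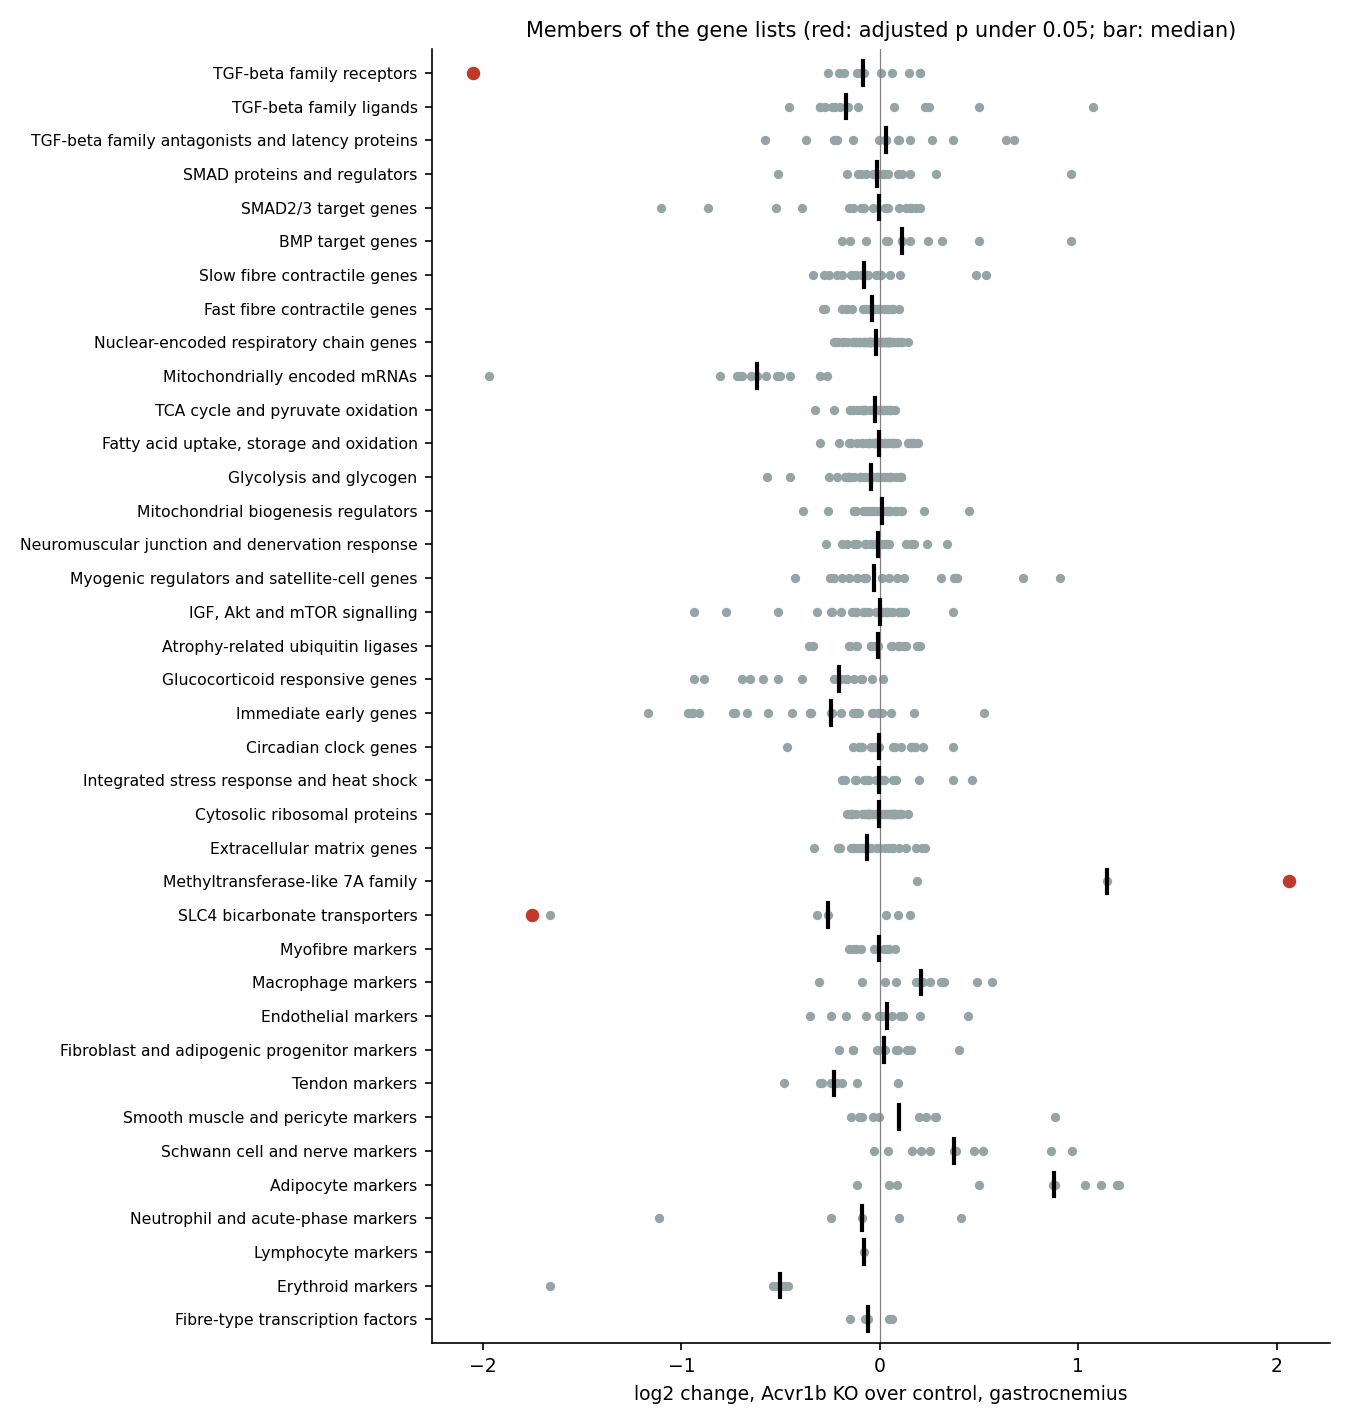
Log2 change, Acvr1b KO over control, of every tested member of the gene lists; the black bar is the list's median and red marks an adjusted p under 0.05. The 3 red points are Acvr1b, Mettl7a3 and Slc4a8; the 13 mitochondrially encoded mRNAs lie to the left, and their median is 0.08 without control 1.

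Markers of other cell types gave no gene past the threshold by edgeR. The 10 adipocyte markers tested had a median log2 change of 0.88, with Plin1 (1.03), picked out after its values were seen, Retn (1.20) and Slc36a2 (1.20) at an unadjusted p under 0.05. Retn, the adipokine resistin, measured 2.45, 1.29, 0.860 and 0.863 CPM in Acvr1b KO, against 0.570, 0.629, 0.812 and 0.373 CPM in control, with no overlap but 2 Acvr1b KO libraries just above control 3. Without Acvr1b KO 1 the median was 0.49. The summed adipocyte level, most of it Car3, which fibres also express, was 993 to 1295 CPM in Acvr1b KO, against 808 to 1623 CPM in control. The 11 Schwann cell and nerve markers had a median of 0.37, which was −0.02 without Acvr1b KO 2. Their summed level was 121 CPM in that library and 48.2 to 53.3 CPM in the other Acvr1b KO libraries, against 43.3 to 68.4 CPM in control. Macrophage markers had a median of 0.21 over 12 genes, endothelial markers 0.04 over 12, fibroblast and adipogenic progenitor markers 0.02 over 12, smooth muscle and pericyte markers 0.10 over 10, and tendon markers −0.23 over 8. Erythroid markers had a median of −0.50 over 6, and −0.23 without control 1. Only 1 of 9 lymphocyte markers, Ptprc, and 5 of 10 neutrophil markers passed the filter; Cd8a had 1 count over the 8 libraries and Ms4a1 had 0.

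Away from the Acvr1b neighbourhood, taken as 20 Mb, edgeR called 0 of 17259 genes, with 741 (4.29%) at an unadjusted p under 0.05. By DESeq2 the number called there was 16, and by edgeR without Acvr1b KO 1 it was 5. The genes with the smallest p whose groups did not overlap are given as values. Non-overlap held for 501 of all genes (2.86%), 253 (1.44%) higher and 248 (1.41%) lower in Acvr1b KO.

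On the lower side, Hbegf, heparin-binding EGF-like growth factor, measured 26.2, 19.2, 22.1 and 15.8 CPM in Acvr1b KO, against 34.7, 32.8, 35.9 and 39.4 CPM in control (log2 change −0.78, SE 0.15, edgeR adjusted p = 0.15). Maff, a small MAF transcription factor 21.8 Mb from Acvr1b on chromosome 15, measured 18.3, 17.2, 17 and 14.8 CPM in Acvr1b KO, against 23.9, 28.5, 29.4 and 25.2 CPM in control (−0.67, adjusted p = 0.146). Trib1, a pseudokinase 41.5 Mb away on the same chromosome, measured 14.2, 10.2, 10.6 and 11.1 CPM in Acvr1b KO, against 20.4, 17.1, 35.3 and 18.6 CPM in control (−0.98, adjusted p = 0.163). In all 3 the groups were apart, for Trib1 with control 3 far above the other controls. The others were Tcim (−0.56), Mapk1ip1 (−0.47), Nrbf2 (−0.35), Gadl1 (−0.46), which encodes an acidic amino acid decarboxylase, and the matrix gene Thbs4, which was also on the tendon list. Thbs4 measured 91.9, 90.5, 122 and 100 CPM in Acvr1b KO, against 123, 148, 130 and 163 CPM in control (−0.48, adjusted p = 0.315), and the summed tendon markers were 278 to 433 CPM in Acvr1b KO, against 322 to 443 CPM in control. Their part in the Thbs4 value was not tested.

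On the higher side, Slc1a5, a neutral amino acid transporter that carries glutamine, measured 17.2, 12.3, 11.9 and 10.1 CPM in Acvr1b KO, against 6.91, 8.58, 9.10 and 8.04 CPM in control (log2 change 0.66, SE 0.14, edgeR adjusted p = 0.235). Nhlrc1, which encodes the glycogen-related ubiquitin ligase malin, measured 6.48, 7.03, 7.01 and 8.90 CPM in Acvr1b KO, against 4.06, 5.89, 4.57 and 4.94 CPM in control (0.59, adjusted p = 0.269). Both sets of groups were apart, with Acvr1b KO 1 the highest for Slc1a5 and Acvr1b KO 4 for Nhlrc1. The others were Ephb4 (0.53), Arhgef2 (0.33), Cygb (0.39), Plau (0.43), Trf (0.64) and Rassf1 (0.28).

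In double KO over Tgfbr1 KO gastrocnemius, 7 of the 8 lower genes passed and fell there as well, against 5.42% of all genes. Of the 741 genes elsewhere with an unadjusted p under 0.05, higher or lower, 17.5% passed there with the same sign. The 16 named genes were chosen by level, non-overlap and small p in the same fit. The shares of these wider sets are thus not matched to them in level or spread. Gadl1 had the widest difference (−2.25, SE 0.12, edgeR adjusted p = 4.94e-09), Hbegf had −1.15 and Maff −0.88. The exception was Trib1, at −0.02. Of the 8 higher genes 3 passed and rose, Arhgef2 (0.86), Cygb (0.93) and Plau (0.82), against 7.44% of all genes. Slc1a5 had 0.32 (adjusted p = 0.168) and Rassf1 −0.16. In Tgfbr1 KO over control gastrocnemius, 7 of the 8 lower and 6 of the 8 higher genes also kept their sign. The log2 changes there ran from −0.89 to 0.13 for the lower genes and from −0.17 to 0.39 for the higher ones. Trib1 measured 14.1, 10.4, 13.7 and 11.4 CPM in Tgfbr1 KO, against 17.1 to 35.3 CPM in control. That comparison uses the same controls as Acvr1b KO over control. In soleus, Acvr1b KO over control, all 16 kept their sign and 0 passed by edgeR; the same sign was found in 73.7% of the genes elsewhere with an unadjusted p under 0.05 and in 56% of all genes. In double KO over Tgfbr1 KO soleus 5 of the 8 higher and 8 of the 8 lower genes kept their sign, and 0 passed by edgeR. The smallest unadjusted p in Acvr1b KO over control soleus were 0.000803 for Ephb4 (0.61) and 0.000364 for Trib1 (−0.88).

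**Figure D5:**
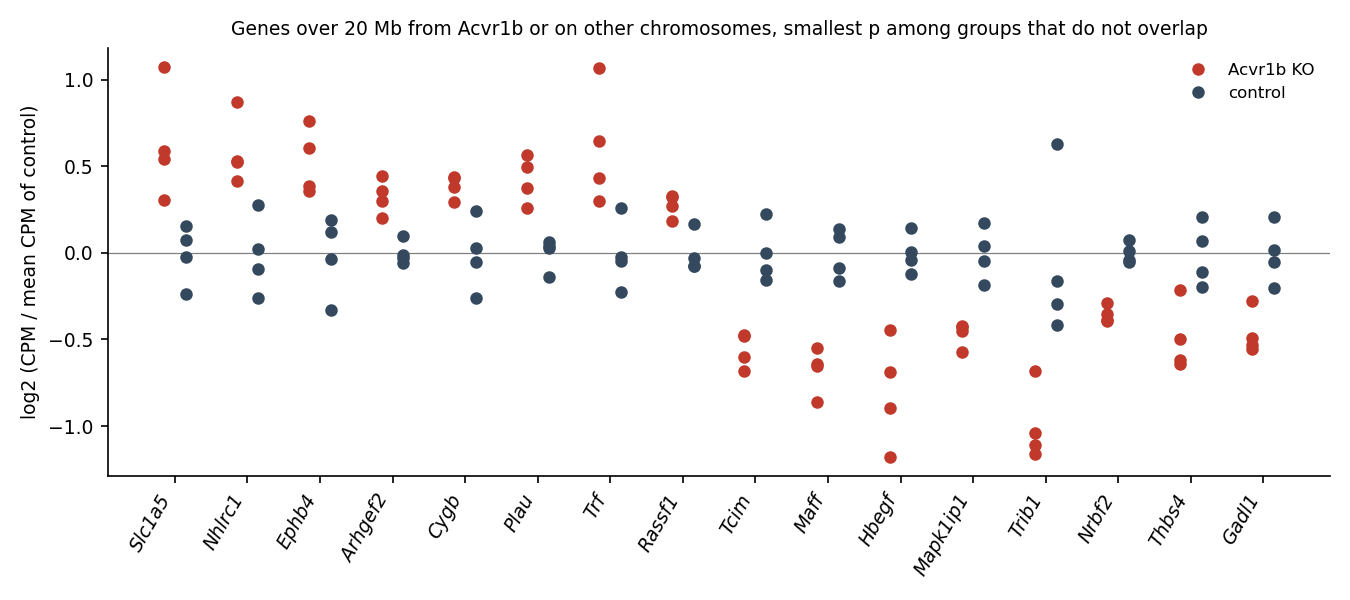
Log2 of the level in each Acvr1b KO (red) and control (dark) gastrocnemius library over the control mean, for the 8 higher and 8 lower genes named outside 20 Mb of Acvr1b. None of the 16 passed the threshold, and Slc1a5, Trf, Hbegf and Trib1 show the wide spread within a group.

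Set directly against Tgfbr1 KO, Acvr1b KO gastrocnemius differed in 31 genes (0.177%), 24 (0.137%) higher and 7 (0.0399%) lower, by edgeR, and in 60 by DESeq2. That comparison shares the Acvr1b KO libraries with the one against control, and the values stand side by side: Acvr1b had −1.72 over Tgfbr1 KO and −2.05 over control, Slc4a8 −1.50 and −1.75, Mettl7a3 2.10 and 2.06, Zfp641 0.82 and 0.72, and Gm49492 −2.12 and −2.17. Slc1a5 passed over Tgfbr1 KO (0.75, edgeR adjusted p = 0.0467), and so did Thbs4, which fell (−0.61, adjusted p = 0.0244). Tgfbr1 itself averaged 24.7 ± 3.39 CPM in Acvr1b KO and 27.1 ± 3.26 CPM in the libraries labelled Tgfbr1 KO (−0.13, adjusted p = 1.00), so its gene-level count does not check that label.

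The 95% interval of a log2 change reached 0.33 to either side in the median gene, and it lay within a 2-fold change for 87.8% of genes.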

How the data were processed

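The authors deposited estimated counts of reads per gene, with a read of several alignments split into fractions. Per the file headers the counting was done by featureCounts 2.0.1 against GRCm38 and Ensembl 102, on the reverse strand (setting 2). The submitters' processing notes also list cutadapt, HISAT2, FastQC 0.11.9 and DESeq2. No entry named no gene, and 55227 of 55487 identifiers got names from GENCODE M21. Gene positions were those given with the deposited counts.

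Here the counts were rounded, filtered with edgeR's filterByExpr and scaled by TMM. The quasi-likelihood test of edgeR (version 4.0.16 in R 4.3.3, with a robust fit, 2-sided, Benjamini-Hochberg over all genes tested, threshold 0.05) was run on the 16 gastrocnemius libraries with a mean per genotype (12 residual degrees of freedom; biological coefficient of variation 0.15). Fits of the soleus (biological coefficient of variation 0.218) and of both muscles (0.189) gave the other comparisons. A standard error is the log2 change over the square root of F; CPM and RPKM were computed here. Each gastrocnemius library came from its own mouse, and chi-square tests found no duplicate libraries.

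Members, gene lists and tests were chosen with earlier results of these data known. Named genes were all that passed; 16 pathway and myosin genes; genes within 2 Mb of Acvr1b with an unadjusted p under 0.05 and its 2 nearest neighbours on each side; outside 20 Mb the 8 higher and 8 lower of smallest p with at least 5 CPM, no overlap and a symbol that is not predicted, clone-named, immunoglobulin or sex-linked; and of each list the members that passed, otherwise up to 2 of smallest p, and the 2 of highest level. Other genes named were chosen after their values were seen, and 2 genes that the rule names are not reported here. Alternatives were DESeq2 1.42.0, RLE factors, no filter, only the compared libraries, a replicate block, no mitochondrially encoded genes, a 10 Mb neighbourhood, leaving out each library and, chosen after seeing the data, leaving out gastrocnemius control 1, Tgfbr1 KO 1 and double KO 1. The test was checked on simulated data, in which 50 well-counted genes were changed at each size. It recovered 4% of the 1.25-fold, 62% of the 1.5-fold, 94% of the 2-fold and 100% of the 4-fold changes. Of its 137 calls 7 were false. Small changes could thus be missed.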

Additional observations from a re-analysis of the deposited data

Results flagged for a closer look

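In 5 of 70 groups of 4 libraries examined (35 genes, Acvr1b KO and control), 1 library lay far from the other 3 by Dixon's test, which chance does in about 1 group of 20. All 5 were control libraries. Control 4 measured 1.00 CPM for Gm49492, against 1.73 to 1.79 CPM in the other controls. Control 1 measured 1.91 CPM for Inhba, against 1.19 to 1.29 CPM, 88721 CPM for Myh4, against 64849 to 66929 CPM, and 15.2 CPM for Plau, against 17.1 to 17.5 CPM. Control 2 measured 12.3 CPM for Rassf1, against 10.4 to 10.7 CPM.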

How the results depend on the processing

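Acvr1b (log2 change −2.10 to −2.01) and Slc4a8 passed under every alternative run. The count of 5 genes was 26 with DESeq2, 3 with only the 8 compared libraries, 3 to 9 when 1 library was left out (9 without Acvr1b KO 1; 3 without Acvr1b KO 2, 3 or 4 or control 2, 3 or 4) and 8 without the 3 libraries that stand apart, a choice made after seeing the data. Near Acvr1b it was 10 with DESeq2, 3 with only the 8 libraries and 3 to 4 with 1 left out; elsewhere it was 16 with DESeq2, 0 to 5 with 1 left out and 2 without the 3 libraries. The share of genes within 1 Mb with an unadjusted p under 0.05 was 25.8 to 38.7% where the filter was kept and 14.3% of 63 genes without it. Acvr1b KO against Tgfbr1 KO gave 60 calls with DESeq2, against 31. The cause of these differences was not tested.

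With the replicate number as a block the count was 2, both near Acvr1b. The numbers do not pair the mice: same-numbered libraries correlated at 0.199, 0.0431, −0.0365 and 0.0452, and 1 of 4 correlated best with its own number. The Mettl7a3 call was lost with only the 8 libraries (adjusted p = 0.0795) and with the block (0.0601).

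Values near 0 changed sign. When 1 library was left out, the log2 change ran from −0.18 to 0.090 for Tgfbr1, −0.27 to 0.13 for Acvr2a, −0.035 to 0.15 for Gdf11, −0.081 to 0.15 for Smad7, −0.055 to 0.032 for Myh2 and −0.13 to 0.030 for Myh4. Control 1 gave the highest of these for Tgfbr1, Acvr2a, Myh2 and Myh4, and its absence together with Tgfbr1 KO 1 and double KO 1 gave 0.092 for Tgfbr1, 0.14 for Acvr2a, −0.051 for Smad7, 0.034 for Myh2 and 0.032 for Myh4. Myh2 had 0.0022 with only the 8 libraries. Of 157 other named genes at most 26 changed sign under an alternative (without control 1), and 0 of the 16 named outside 20 Mb did.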
